A study of Mus musculus with 9 samples.

Results

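The 7 genes studied here build the squamous lipid barrier and were followed across the stomach wall: *Elovl4*, *Cers3*, *Ugcg*, *Abca12*, *Alox12b*, *Aloxe3* and *Lipm*. They were taken as every probe set whose only gene symbol is one of these, which gave 12 probe sets for the 7 genes, out of 34945 probe sets that name 18193 genes. All 12 passed the filter on low signals, so all 7 genes were among the 13637 tested. The tissue came from 9 healthy, untreated female C57Bl/6 mice aged 3 months. The 3 adjoining zones cut from each stomach were the squamocolumnar junction, the non-glandular forestomach, and the acid-secreting glandular corpus. All zones share this strain, sex and age, and the labels name no altered allele. Tissue of 3 mice was pooled for each of 3 series, so each zone has 3 arrays, and arrays with the same series number come from the same mice. The pools are of separate mice, and each stripe held whatever layers the dissection took, not epithelium alone.

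In the outer layers of cornified squamous epithelium, keratinocytes build a water barrier from ceramides with unusually long acyl chains. ELOVL4 lengthens the fatty acids, CERS3 joins them to a sphingoid base, UGCG adds a glucose, and ABCA12 loads the glucosylceramides into lamellar granules for secretion. ALOX12B and ALOXE3 then oxidise the linoleate of the acylceramides in successive steps, which precedes their attachment to the protein envelope of the dead cell, and LIPM is a lipase of the acid lipase family found in late keratinocytes. In people, inherited loss of ABCA12, ALOX12B, ALOXE3 or CERS3 causes ichthyosis, a scaling disorder of the skin. The forestomach of rodents carries a cornified squamous lining, and the corpus a simple columnar one.

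Promoter sequence from RefSeq (GRCm38.p6) was at hand for 6 of the 7 genes, and 3 are shown because they bracket the behaviour described below. *Elovl4* and *Lipm* had large differences between zones and *Ugcg* a small one. Each line gives the 250 bases before the annotated start on the gene's strand, with capitals marking a GC box. *Elovl4* lies at chr9:83806306-83806555 (minus strand), *Lipm* at chr19:34100693-34100942 (plus strand) and *Ugcg* at chr4:59189300-59189549 (plus strand).
Elovl4: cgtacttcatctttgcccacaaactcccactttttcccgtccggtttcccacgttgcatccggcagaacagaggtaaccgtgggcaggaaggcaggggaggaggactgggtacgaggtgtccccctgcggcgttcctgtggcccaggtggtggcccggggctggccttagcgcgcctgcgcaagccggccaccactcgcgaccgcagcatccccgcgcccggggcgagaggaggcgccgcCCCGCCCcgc
Lipm: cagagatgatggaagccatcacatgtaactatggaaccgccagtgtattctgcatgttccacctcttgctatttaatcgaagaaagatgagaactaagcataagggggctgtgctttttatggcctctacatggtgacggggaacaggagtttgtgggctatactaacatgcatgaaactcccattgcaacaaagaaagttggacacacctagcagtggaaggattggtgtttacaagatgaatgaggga
Ugcg: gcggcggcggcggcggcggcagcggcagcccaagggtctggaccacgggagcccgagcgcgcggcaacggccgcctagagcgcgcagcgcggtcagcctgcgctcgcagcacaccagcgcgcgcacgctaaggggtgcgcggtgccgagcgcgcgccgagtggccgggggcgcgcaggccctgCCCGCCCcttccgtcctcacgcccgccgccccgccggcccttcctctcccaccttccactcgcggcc
The window of 300 bases, which runs to 50 bases past the start, was 71.0% G and C in *Elovl4*, 45.3% in *Lipm* and 81.3% in *Ugcg*, against a median of 52.7% over 32851 RefSeq windows. It was 66.0% in *Alox12b*, 51.3% in *Abca12* and 50.7% in *Cers3*. The windows were searched on both strands for TGANTCA (AP-1), AACCGGTT (grainyhead-like factors) and GGGCGGG (the GC box of Sp and Klf factors), and no match of one overlapped a match of another. The GC box occurred at 2 places in *Alox12b*, at 1 each in *Elovl4* and *Ugcg*, and at none in *Lipm*, *Abca12* or *Cers3*, and 25.6% of all windows hold it. No window of the 6 genes held the AP-1 letters, found in 7.81% of windows, or the grainyhead-like letters, found in 0.146%. These are matches of letters in a short window and not binding sites.

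Each probe set has 1 linear signal per array, and a gene is represented by its probe set with the highest mean. Differences are on the log2(signal + 9.8) scale and were tested with limma over all 13637 genes, with a Benjamini-Hochberg adjusted p under 0.05 as the threshold. Array medians ran from 47.9 to 57.1. A filter level, the 40th percentile of an array, ran from 29.0 to 36.5, and a signal under it is treated as not measured above background. The zones carried their labels' markers. All 15 squamous markers, basal, suprabasal and cornified, rose in the forestomach and in the junction against the corpus. Of 10 gastric gland markers 8 fell in the forestomach against the corpus, and their summed signal was 98918.9 to 113904 in the junction, 970.0 to 25991.3 in the forestomach and 97335.7 to 136976 in the corpus. Gland transcripts were thus unequal on the forestomach arrays, where the proton pump gene *Atp4a* had signals of 45.6, 376.1 and 644.6 on arrays 1, 2 and 3. Smooth muscle moved as well: all 5 muscle markers rose in the forestomach against the corpus, by a median log2 difference of 1.57, with summed signals of 40825.2 to 46480.1 in the forestomach and 16295.5 to 24102.4 in the corpus. The part of muscle and gland transcripts in the results below was not tested. Of the sebaceous list 2 of 8 genes were tested, of which 1 (*Mogat1*) fell in the forestomach against the corpus and 1 (*Krt79*) did not pass. In the junction *Krt79* was higher than in the corpus (1.56 ± 0.10, adjusted p = 1.12e-05) and than in the forestomach (1.72 ± 0.10, adjusted p = 4.46e-06). *Mogat1* did not pass in the junction against the corpus (adjusted p = 0.210). Of the hair follicle list 1 of 8 was tested and rose (*Dlx3*, which keratinocytes also express), and of the adipocyte list 3 of 6 were tested, of which 1 fell and 2 did not pass. In bulk tissue of this kind, fewer cells of a type and less RNA per cell cannot be told apart.

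All 7 genes rose in the forestomach against the corpus, and for all 7 every forestomach array lay above every corpus array. Over all genes tested 30.0% were called higher, 29.9% were called lower, and 33.2% had all 3 forestomach arrays above all 3 corpus arrays. The median log2 difference of the 7 was 4.22, where that of all genes was -0.01. The median stays at 4.22 with the 3 genes whose corpus signals all lay under the filter level set at their bound. In the junction 6 of the 7 rose against the corpus and *Ugcg* did not pass, beside 13.2% of all genes called higher and 11.8% called lower, and 20% with all junction arrays above all corpus arrays. Against the forestomach all 7 fell in the junction, with all 3 junction arrays below all 3 forestomach arrays for each, beside 23.1% of all genes called lower, 21.5% called higher and 29.8% so separated. Other tissue moved alongside: in the same comparison all 5 smooth muscle markers fell (median -1.52, where the 7 genes had -1.36) and 8 of 10 gland markers rose (median 5.47). The part of these in the fall of the 7 genes was not tested. The junction was thus lower than the forestomach for each gene and higher than the corpus for all but *Ugcg*.

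**Figure D1:**
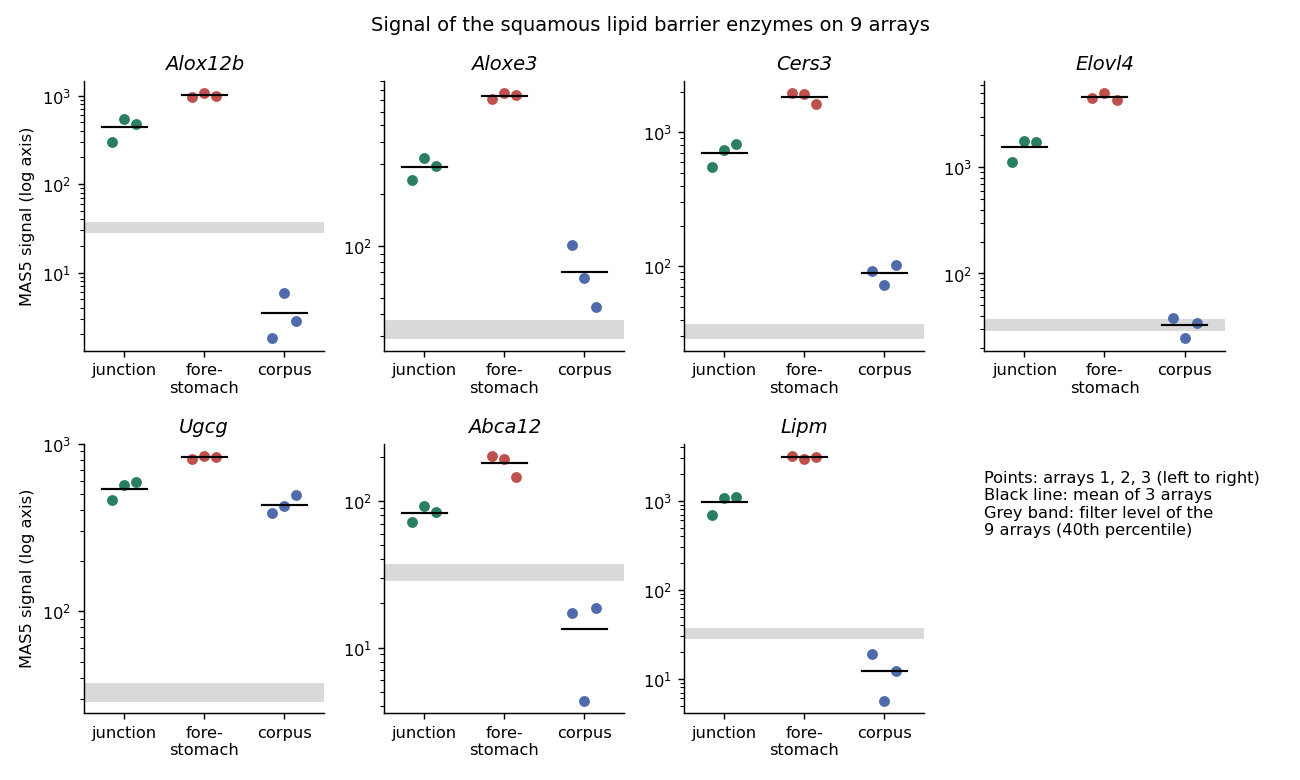
Signal (log axis) of each of the 7 genes on the 3 junction, 3 forestomach and 3 corpus arrays, with the mean as a black line and the filter level, 29.0 to 36.5, as a grey band. The junction mean lies between its neighbours in every panel, though for *Ugcg* junction array 1 lies below a corpus array, and the corpus points of *Alox12b*, *Abca12* and *Lipm* lie under the band.

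*Elovl4*, the elongase of very long acyl chains, opens the pathway. Its signal was 1131.8, 1755.7 and 1734.7 in the junction, 4463.9, 4991.2 and 4279.9 in the forestomach, and 38.3, 24.4 and 34.4 in the corpus. The 3 zones did not overlap, and the corpus lay near background, with 2 of 3 arrays above their filter level. The forestomach was 109.7-fold above the corpus (6.78 ± 0.19 as a log2 difference with its SE, adjusted p = 7.40e-08), and the junction 36.4-fold (5.19 ± 0.19, adjusted p = 8.75e-07). The junction fell against the forestomach by 1.59 ± 0.19 (adjusted p = 2.59e-04). The other probe set of *Elovl4* gave 6.83 ± 0.19 for the forestomach against the corpus and -1.63 ± 0.19 for the junction against the forestomach. Its corpus signals of 23.9, 14.7 and 22.9 were all under the filter level, so the 6.83 depends on the pseudocount. As a bound, its forestomach signal was at least 98.2-fold above the corpus.

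*Cers3*, the ceramide synthase that accepts these long chains, had junction signals of 549.1, 733.5 and 819.0. The forestomach gave 1951.8, 1942.0 and 1612.8, and the corpus 92.7, 72.4 and 103.1. All corpus arrays lay above the filter level, so the corpus signal was measured and not at the floor. The forestomach was 18.7-fold above the corpus (4.22 ± 0.18 on the log2 scale, adjusted p = 2.30e-07), the junction 7.13-fold above it (2.83 ± 0.18, adjusted p = 9.05e-06), and the junction fell by 1.39 ± 0.18 against the forestomach (adjusted p = 3.24e-04).

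*Ugcg*, the glucosylceramide synthase, makes the first glycosphingolipid of most cell types and not only of keratinocytes. Its signal was 462.4, 570.4 and 588.2 in the junction, 812.6, 845.4 and 839.1 in the forestomach, and 384.5, 424.9 and 491.1 in the corpus. The forestomach arrays stood apart, whereas junction array 1 lay below the highest corpus array. The forestomach was 1.91-fold above the corpus (0.93 ± 0.12 on the log2 scale, adjusted p = 2.22e-04), the smallest of the 7 differences. The junction had a log2 difference of 0.31 from the corpus (95% confidence interval 0.03 to 0.59, adjusted p = 0.103), and it fell by 0.62 ± 0.12 against the forestomach (adjusted p = 0.00372). Without junction array 1 the junction passed against the corpus (0.42 ± 0.12, adjusted p = 0.0389), and without forestomach arrays 2 and 3 the fall against the forestomach did not pass (-0.59 ± 0.20, adjusted p = 0.0707).

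The 4 probe sets of *Ugcg* ran in the same direction but not to the same extent. For the forestomach against the corpus their log2 differences were 0.93, 0.69, 1.49 and 1.44, all past the threshold when every probe set was tested as a feature of its own. For the junction against the corpus they were 0.31, 0.22, 0.70 and 0.25, and the probe set at 0.70 passed (adjusted p = 0.0260) while the other adjusted p values were 0.130, 0.307 and 0.307. For the junction against the forestomach they were -0.62, -0.47, -0.79 and -1.19, and all passed. The junction against the corpus is therefore the *Ugcg* comparison whose call depends on the probe set.

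**Figure D2:**
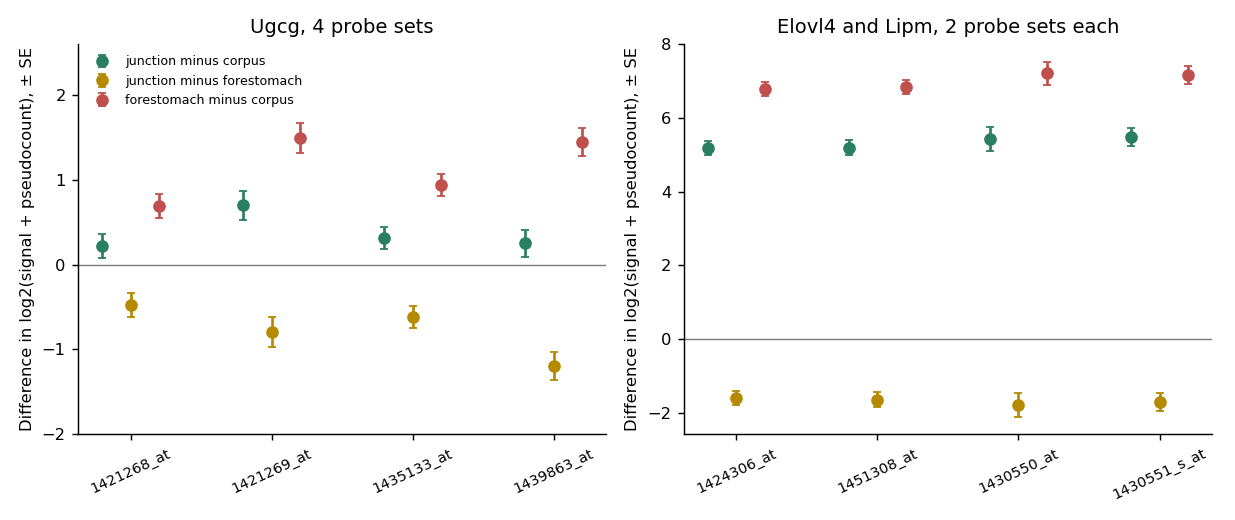
Log2 differences (± SE, all probe sets tested as features) for the 4 probe sets of *Ugcg* on the left and the probe sets of *Elovl4* and *Lipm* on the right. Those of *Elovl4* and *Lipm* nearly coincide, at 6.78 and 6.83 and at 7.21 and 7.17 for the forestomach minus the corpus, while those of *Ugcg* spread from 0.69 to 1.49. Corpus signals of both *Lipm* probe sets and of the *Elovl4* probe set at 6.83 lay under the filter level, so these sizes depend on the pseudocount.

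*Abca12*, the transporter that fills lamellar granules, was dim. It had 72.3, 92.0 and 84.5 in the junction, 203.5, 193.5 and 146.6 in the forestomach, and 17.2, 4.3 and 18.6 in the corpus. No corpus array reached its filter level, so folds against the corpus are lower bounds, set at the filter level, while the fitted log2 differences beside them depend on the pseudocount and are no bounds. The forestomach was at least 5.18-fold above the corpus (3.10 ± 0.26 on the log2 scale, adjusted p = 1.24e-05) and the junction at least 2.38-fold (2.06 ± 0.26, adjusted p = 7.35e-04). The junction fell by 1.04 ± 0.26 against the forestomach (adjusted p = 0.0114). Of the 7 such calls this one was lost under the most alternatives, namely with a pseudocount of 1 (adjusted p = 0.0832), without series 1 (adjusted p = 0.115) and without forestomach arrays 2 and 3 (adjusted p = 0.0619), all with the junction lower.

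*Alox12b* encodes the lipoxygenase that makes the first oxidation of the linoleate, and *Aloxe3* the one that converts its product. They are neighbouring genes on chromosome 11. *Alox12b* had 297.6, 544.3 and 477.0 in the junction, 963.2, 1061.6 and 1002.2 in the forestomach, and 1.8, 5.9 and 2.8 in the corpus, where no array reached the filter level. The forestomach was at least 29.1-fold above the corpus (6.27 ± 0.21 on the log2 scale, adjusted p = 1.15e-07), and the junction at least 12.3-fold (5.05 ± 0.21, adjusted p = 1.22e-06). The junction fell by 1.22 ± 0.21 against the forestomach (adjusted p = 0.00177).

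*Aloxe3* had 239.2, 324.7 and 289.5 in the junction, 711.7, 766.4 and 747.8 in the forestomach, and 101.4, 65.1 and 44.4 in the corpus. Unlike *Alox12b*, its probe set was above the filter level on all 3 corpus arrays. The forestomach was 9.80-fold above the corpus (3.29 ± 0.23 on the log2 scale, adjusted p = 4.45e-06) and the junction 3.81-fold (1.93 ± 0.23, adjusted p = 5.92e-04). The junction fell by 1.36 ± 0.23 against the forestomach (adjusted p = 0.00169), close to the value of *Alox12b*, whose interval overlaps with it (-1.71 to -0.74 for *Alox12b* and -1.90 to -0.83 for *Aloxe3*, 95%). The levels of different probe sets are not comparable, so the higher corpus signal of *Aloxe3* does not rank both genes.

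*Lipm* is the lipase. Its signal was 695.7, 1085.0 and 1113.9 in the junction, 3181.7, 2943.4 and 3092.4 in the forestomach, and 19.1, 5.6 and 12.1 in the corpus, all under the filter level there. The forestomach was at least 88.7-fold above the corpus (7.17 ± 0.25 on the log2 scale, adjusted p = 1.20e-07) and the junction at least 27.3-fold (5.48 ± 0.25, adjusted p = 1.87e-06). Its fitted difference cannot be ranked against that of *Elovl4*, since with a pseudocount of 30.9 they were 6.18 for *Lipm* and 6.19 for *Elovl4*. The junction fell by 1.69 ± 0.25 against the forestomach (adjusted p = 6.72e-04).

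**Figure D3:**
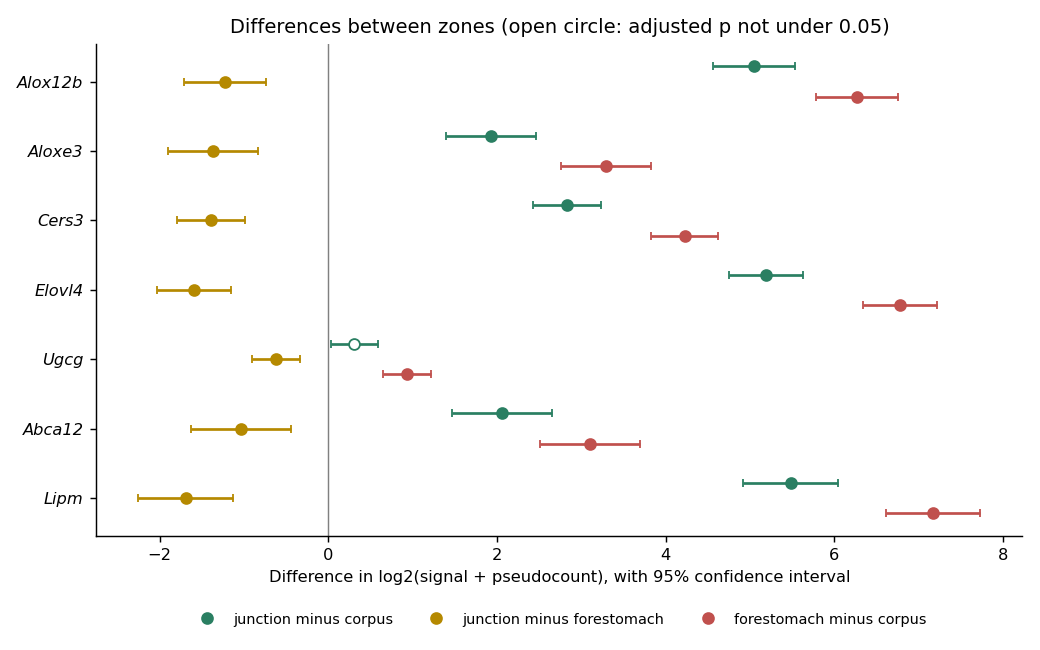
Log2 differences of the 7 genes with their 95% confidence intervals, for the junction minus the corpus (green), the junction minus the forestomach (ochre) and the forestomach minus the corpus (red). Differences from the corpus span 0.31 to 7.17, whereas the junction minus the forestomach spans only -1.69 to -0.62. The open circle is *Ugcg* in the junction minus the corpus.

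The genes therefore differed widely in their distance from the corpus and much less in their distance from the forestomach. On the log2 scale the junction lay above the midpoint of its neighbours for 4 genes: *Alox12b* (1.91 ± 0.18, adjusted p = 2.72e-04), *Lipm* (1.89 ± 0.21, adjusted p = 5.40e-04), *Elovl4* (1.80 ± 0.17, adjusted p = 2.45e-04) and *Cers3* (0.72 ± 0.15, adjusted p = 0.0119). *Abca12* (0.51 ± 0.23), *Aloxe3* (0.28 ± 0.20) and *Ugcg* (-0.16 ± 0.11) did not pass, with adjusted p of 0.153, 0.382 and 0.363. The 4 genes that passed also had the largest fitted differences between the forestomach and the corpus (4.22 to 7.17). The midpoint contrast depends on that difference, so these calls largely restate it. The sizes for *Alox12b* and *Lipm* rest on corpus signals under the filter level. Over all genes 11.2% were called above the midpoint and 7.98% below it. The call of *Cers3* was lost without junction array 2 or 3 and without series 2 or 3 (adjusted p from 0.0531 to 0.116).

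On the linear scale all 7 genes lay nearer to the corpus by their mean position. Within a series, the junction's position is its signal less that of the corpus, as a percentage of the forestomach's signal less that of the corpus. It was 43.1 ± 10.8% for *Alox12b* (mean ± SD, n = 3 series), 42.5 ± 11.5% for *Abca12*, 35.8 ± 11.4% for *Cers3* and 33.2 ± 7.8% for *Elovl4*. It was 31.5 ± 7.8% for *Aloxe3*, 31.3 ± 8.6% for *Lipm* and 26.9 ± 8.2% for *Ugcg*. The lowest position came from series 1 for all 7 genes, so the spread over series is partly shared. Within series, *Ugcg* by its representing probe set was the lowest of the 7 in all 3, and *Alox12b* and *Abca12* were above the other 5 in all 3. Some margins were slight: 0.26 points for *Elovl4* over *Ugcg* in series 2, and 0.03 for *Alox12b* over *Cers3* in series 3. Positions of the other *Ugcg* probe sets were not computed. Those probe sets differed in the junction against the corpus, so the rank of *Ugcg* need not hold for them. *Alox12b* exceeded *Ugcg* by 12.6, 16.4 and 19.5 percentage points in series 1, 2 and 3. *Alox12b* and *Abca12* changed places between series, as did *Lipm*, *Aloxe3*, *Elovl4* and *Cers3* among themselves. These differences were not tested.

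Markers of squamous layers took other positions. The keratins of the basal layer, *Krt14* and *Krt5*, lay at 101.3 ± 21.3% and 107.3 ± 12.8%, so their junction signal was about that of the forestomach. The suprabasal keratins *Krt1* and *Krt10* lay at means of 105.4% and 102.4%. Genes of the cornified layer were spread widely. Lower were involucrin (*Ivl*) at 26.2 ± 3.2%, the repetitive S100 fused-type proteins *Hrnr* and *Flg* at 38.7 ± 13.6% and 38.7 ± 9.4%, and corneodesmosin (*Cdsn*) at a mean of 48.1%. Loricrin (*Lor*), also of the cornified envelope, lay at 83.8 ± 16.8%, and *Sprr1b* at 51.6 ± 3.9%. The keratins *Krt4* and *Krt13* had means of 63.5% and 73.8%, and the basal genes *Trp63*, *Col17a1* and *Krt15* means of 69.4%, 73.3% and 208.0%, so the layers were not cleanly ordered. The median position was 33.2% for the 7 lipid genes, 57.6% for 10 suprabasal and cornified markers and 101.3% for 5 basal markers. *Krt14* had a log2 difference of -0.00 ± 0.25 between the junction and the forestomach (adjusted p = 0.997) and *Krt10* one of 0.03 ± 0.32 (adjusted p = 0.947).

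**Figure D4:**
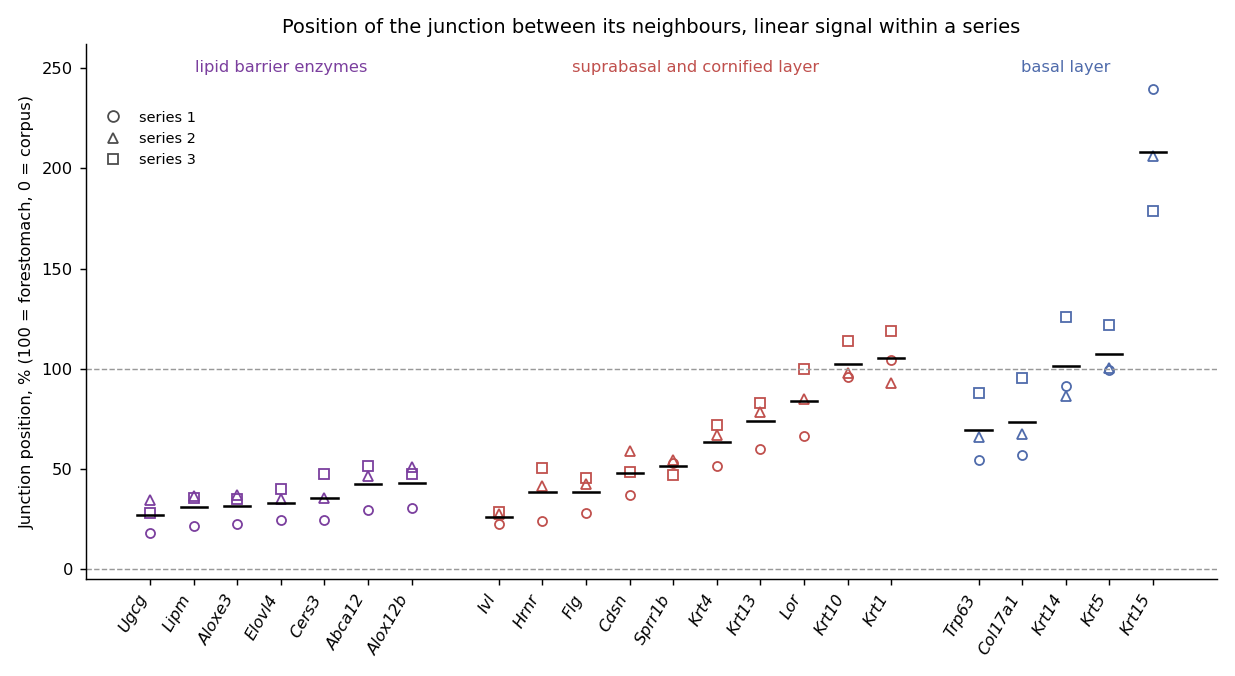
Position of the junction between the corpus (0%) and the forestomach (100%) on the linear signal, for each series (symbols) and as the mean (black line). The 7 lipid genes, at means of 26.9 to 43.1%, lie in the lower part of the range of the suprabasal and cornified markers (26.2 to 105.4%) and below all 5 basal markers (69.4 to 208.0%).

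The log2 ratio of each gene to a marker on the same array was added after the values were seen. *Krt14* and *Krt10* hardly differed in mean between these zones, so ratios to them restate the fall of the 7 genes array by array. Relative to *Krt14*, all 7 genes were lower on every junction array than on any forestomach array, by 0.62 (*Ugcg*) to 1.69 (*Lipm*) on the log2 scale. The same held relative to *Krt10*. Relative to *Flg*, *Elovl4* and *Lipm* were lower on every junction array (-0.22 and -0.32), *Ugcg* was higher (0.75), and the arrays of the other 4 genes overlapped. An exact permutation test of 3 junction against 3 forestomach arrays cannot go below p = 0.10 (two-sided), which each separated ratio reached. Adjusted over the 21 ratios it is 0.124. With 3 against 3 arrays no ratio could have passed, so the test decides nothing about them.

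Junction array 1 was the lowest junction array for all 7 genes, at a median of 70.7% of the mean of arrays 2 and 3. It was also the lowest for all 5 basal markers (median 68.9%) and for 9 of 10 suprabasal and cornified markers (72.5%), whereas gland markers stood at a median of 106%. The part of this difference in the results was not tested, but the calls can be set beside those without that array. Leaving it out kept all calls of the 7 genes in the 3 comparisons and against the midpoint, and added that of *Ugcg* in the junction against the corpus. On the forestomach arrays the 7 genes varied little, with a standard deviation of 2.09% of the mean for *Ugcg*, 3.92% for *Lipm* and 16.8% for *Abca12*, the highest.

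Genes with the most similar profiles were sought among all genes tested, by the root mean square difference of the 9 log2 values after each gene was centred on its mean. The 3 nearest to *Alox12b* were sciellin (*Scel*, 0.20), *Capns2* (0.22) and the transglutaminase *Tgm1* (0.23), which attaches lipids and proteins to the cornified envelope. *Aloxe3* was nearest to envoplakin (*Evpl*, 0.20), *Dennd2c* (0.20) and *Otub2* (0.22), and *Abca12* to the transcription factor gene *Cebpa* (0.19), *Plekhn1* (0.20) and the protease gene *Tmprss11f* (0.22). *Elovl4* was nearest to *Fads2b* (0.14), adenosine deaminase (*Ada*, 0.16) and *Scel* (0.17), and *Lipm* to cystatin E/M (*Cst6*, 0.16), *Nmu* (0.19) and *Calm4* (0.19). *Cers3* was nearest to *Kctd1* (0.15), *Slc10a6* (0.17) and *Cyp4f39* (0.19), a cytochrome P450 gene whose human counterpart hydroxylates the end of ultra-long acyl chains. *Ugcg* was nearest to *Bcap29* (0.06), *Zdhhc9* (0.07) and *Ryk* (0.07). Among the 7, the closest pair was *Elovl4* and *Lipm* (0.21), and *Alox12b* and *Aloxe3*, which lie side by side, differed by 1.47. Corpus signals of *Alox12b*, *Abca12* and *Lipm* lay under the filter level, so distances that involve these genes depend on the pseudocount. In the junction against the forestomach, where both were above that level, *Alox12b* and *Aloxe3* had log2 differences of -1.22 and -1.36.

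The other genes of the pathway were taken from 8 lists, of which 69 of 79 genes were tested. Of these, 40 rose and 14 fell in the forestomach against the corpus, 31 rose and 7 fell in the junction against the corpus, and 15 rose and 38 fell in the junction against the forestomach. The median log2 difference over the 69 was 0.82 for the forestomach against the corpus. Over all genes, as given above, 30.0% were called higher and 29.9% lower in the forestomach against the corpus, 13.2% and 11.8% in the junction against the corpus, and 21.5% and 23.1% in the junction against the forestomach. Counts of a few genes near those shares, such as those of the sphingoid base list, are no result about the list.

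Of 11 genes of acylceramide synthesis and the lipid envelope, 9 rose, 1 fell and 1 did not pass in the forestomach against the corpus (median 2.99). *Tgm1* (adjusted p = 3.21e-07) and *Nipal4* (adjusted p = 8.57e-07) reached the filter level on no corpus array, and their forestomach signal was at least 50.6-fold and at least 31.4-fold above the corpus. The epoxide hydrolase gene *Ephx3* rose by 5.17 ± 0.20 and *Cyp4f39* by 4.38 ± 0.14 on the log2 scale. On corpus array 1 the signal of *Ephx3*, 34.5, lay under the filter level. *Cyp4f39* had signals of 353.6, 519.7 and 507.5 in the junction, 1143.4, 1113.1 and 1129.9 in the forestomach, and 45.2, 46.9 and 42.7 in the corpus, with no overlap between zones. The gene that fell was *Aldh3a2* (-0.99), a fatty aldehyde dehydrogenase, and *Fa2h*, the fatty acid 2-hydroxylase, had a log2 difference of -0.05. In the junction against the forestomach 10 of the 11 fell and 1 rose.

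Of 7 genes of the acid lipase family and the epidermal phospholipases, 6 rose and 0 fell (median 3.49). The phospholipase gene *Pla2g4e* rose by 5.72 ± 0.42 (adjusted p = 5.24e-06). On corpus array 1 its signal, 4.0, lay under the filter level, so this size depends on the pseudocount. Corpus signals of *Pla2g4f*, *Lipk* and *Lipn* lay under the filter level on all 3 arrays, so their folds are bounds. The list median of 3.49 is the fitted value of *Lipn* and thus depends on the pseudocount. The forestomach was at least 16.7-fold above the corpus for *Pla2g4f* (adjusted p = 1.68e-07), at least 26.3-fold for *Lipk* (adjusted p = 1.60e-06) and at least 4.40-fold for *Lipn* (adjusted p = 1.20e-06). *Lipk* and *Lipn* are close relatives of *Lipm*. *Lipn* is the coding neighbour of *Lipm* on chromosome 19. *Lipa*, the lysosomal member of the family, had a log2 difference of 0.09 (adjusted p = 0.520). Among the family's genes in this list the skin members thus rose and the lysosomal one did not pass.

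The chain-lengthening enzymes were mixed. Of 11 elongation genes 7 rose and 2 fell (median 0.88). *Elovl6*, which lengthens palmitate, had 639.3, 1077.5 and 970.5 in the junction, 4411.2, 4394.3 and 4646.9 in the forestomach, and 243.9, 285.6 and 220.2 in the corpus (4.12 ± 0.19, adjusted p = 3.48e-07). *Elovl1* (1.89 ± 0.11) and the dehydratase gene *Hacd2* (1.70 ± 0.11) rose and *Elovl7* fell (-1.80 ± 0.09, adjusted p = 7.75e-07). The ceramide synthases other than *Cers3* mostly ran the other way: *Cers5* rose (1.52 ± 0.14), and *Cers2* (-1.13 ± 0.12), *Cers4* (-0.96 ± 0.17) and *Cers6* (-0.64 ± 0.11) fell. *Cers3* and *Cers5* were thus higher, and the other 3 synthases tested lower, in the forestomach than in the corpus.

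For the genes of sphingoid base synthesis the counts are no result about the list, as said above. Of 9 genes 4 rose, 1 fell and 4 did not pass (median 0.07), with the desaturase gene *Degs1* at 1.31 ± 0.12, the serine palmitoyltransferase subunits *Sptlc1* and *Sptlc2* at 1.01 and 0.46, *Sptlc3* at least 1.62-fold up on a corpus under the filter level, and *Sptssa* at -0.33. Of 15 genes that turn over glucosylceramide, sphingomyelin and ceramide, 8 rose and 5 fell (median 0.48). The glucosylceramidase gene *Gba2* rose by 3.40 ± 0.21 (adjusted p = 2.14e-06), the glycolipid transfer protein gene *Gltp* by 2.89 ± 0.12 and the acid sphingomyelinase gene *Smpd1* by 2.65 ± 0.14. The sphingomyelin synthase gene *Sgms2* fell by 3.06 ± 0.15 on the log2 scale (adjusted p = 5.42e-07).

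The other lipoxygenases and Abca transporters did not follow the members as families. Of 4 other lipoxygenases tested, *Alox12* rose (2.28 ± 0.21, adjusted p = 2.30e-05), *Alox12e* fell (-0.71 ± 0.21, adjusted p = 0.0182) and 2 did not pass. Of 8 other Abca transporters 4 rose, 1 fell and 3 did not pass, all by less than the 3.10 of *Abca12*: *Abca9* at 0.97, *Abca8a* at 0.89, *Abca1* at 0.82 and *Abca3* at -0.75. Neither list's median, -0.48 and 0.21, came near that of the 7 genes.

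**Figure D5:**
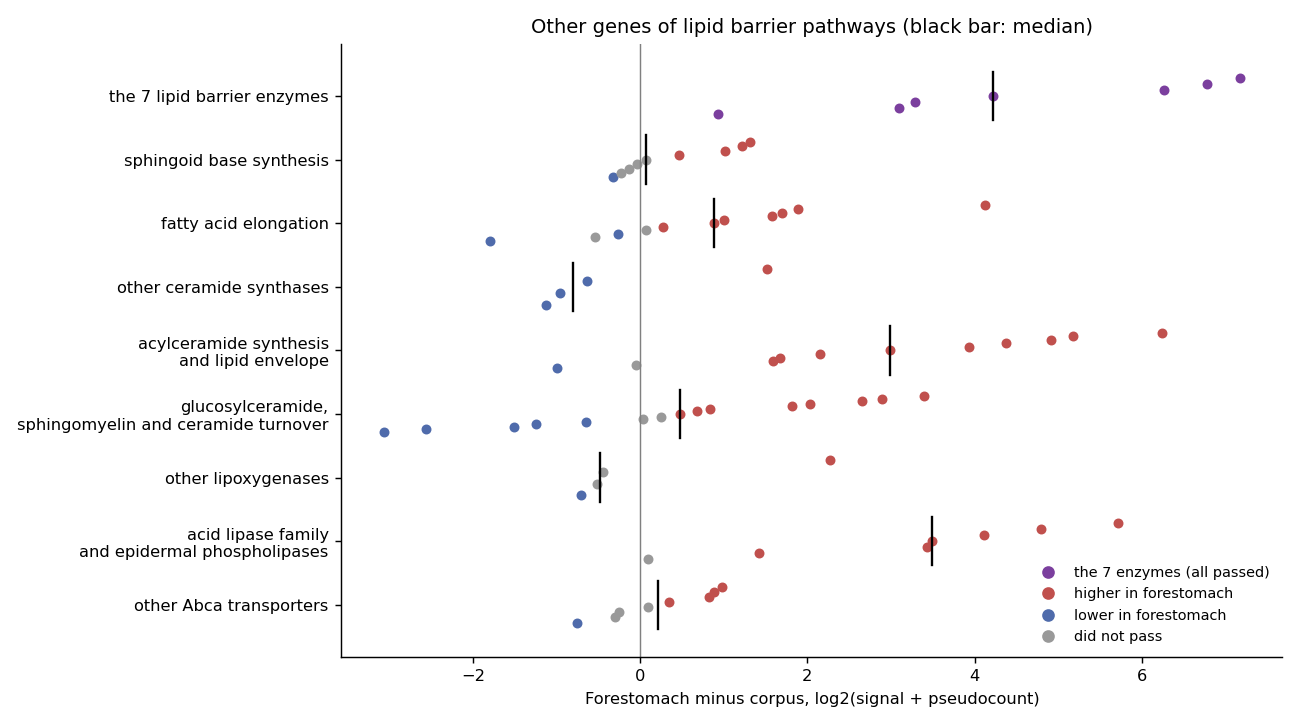
Log2 difference, forestomach minus corpus, of the 7 lipid barrier genes (top row) and of the 69 tested genes of 8 pathway lists, coloured by call, with a black bar at each median. The acylceramide and lipase lists have medians of 2.99 and 3.49, and the other lists lie between -0.80 and 0.88. The 3.49 is the fitted value of *Lipn*, whose corpus signals lay under the filter level, so it depends on the pseudocount.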

How the data were processed

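Total RNA was measured on Affymetrix mouse arrays, 1 for each zone of each pool. The deposited values are linear signal intensity. The submitters' processing notes name MAS5, without a version or settings. Every array's 2% trimmed mean was 200.0. MAS5 subtracts mismatch probes, which leaves dim signals noisy; precision is set by how many arrays there are.

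Probe sets were named from the platform annotation of 2016, updated by Entrez ID to GRCm38.p6 (34741 matched). Kept probe sets exceeded their array's 40th percentile on at least 3 arrays (29511 of 45101, of them 24870 with 1 symbol). Values were analysed as log2(signal + 9.8), the median 20th percentile, without further normalization. limma 3.58.1 in R 4.3.3 fitted 1 mean per zone over 9 arrays (6 residual and 2.56 prior degrees of freedom, two-sided), tested on simulated data. A lower bound sets each corpus array at the higher of its signal and its filter level. Figures used Python 3.11.15 and matplotlib 3.10.9.

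Same-numbered arrays come from the same mice, per the labels' design text, so the series number pairs them. Their deviations correlated at r from -0.0287 to 0.123 across genes (9 pairs). Members, lists and tests were chosen with earlier results of these data known. Named genes are all members, up to 4 called genes a list with the largest difference, and the 3 nearest profiles, passing over predicted genes and Riken clones. List genes that were not tested, and protein sequences, were not analysed here. Added after seeing the data were the fit without forestomach arrays 2 and 3 and the ratios to Krt14, Krt10 and Flg.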

Additional observations from a re-analysis of the deposited data

How the results depend on the processing

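In the forestomach against the corpus all 7 genes stayed past the threshold and higher under all 24 alternatives each. In the junction against the corpus 6 stayed, and against the forestomach 5 of 7 did, the exceptions being Abca12 and Ugcg as given in the report. Leaving out arrays or series gave 7 genes called in the first comparison, 6 to 7 in the second, 5 to 7 falls against the forestomach (5 without forestomach arrays 2 and 3) and 3 to 4 above the midpoint. With the series as a replicate block the counts were 7, 6, 7 and 4, and the block changed no call. No direction reversed. Sizes against the corpus moved by over 1.5 times with the pseudocount for dim genes: with pseudocounts of 1 and 30.9 the forestomach differences were 7.91 and 4.92 for Alox12b and 3.87 and 2.27 for Abca12, and with the larger one 6.18 for Lipm and 6.19 for Elovl4. With a pseudocount of 1, Lipm gave a fitted 255.5-fold, where one of 9.8 gave 144.2-fold. Those of the junction were 6.67 and 3.74 for Alox12b, 2.76 and 1.38 for Abca12, and 6.30 and 4.51 for Lipm, and Alox12b above the midpoint gave 2.72 and 1.28. Counts over all genes moved more. Median centring put the median of all genes at 0.10 in the forestomach against the corpus, where it was -0.01. It put 70.7% of calls higher in the junction against the corpus, where the fit without it put 52.8%, and called 873 lower where it called 1606. Leaving out a series called 322 to 816 genes lower and 899 to 1212 higher there (1800 with all), and leaving out corpus array 1 or 2 or junction array 2 or 3 called 878 to 1054 lower. In the junction against the forestomach, 3152 genes were lower, against 1961 without series 1 and 1788 without forestomach arrays 2 and 3. Above the midpoint were 1532 genes, against 747 to 970 without a series, and below it 1088, against 261 to 461 without a series, 655 and 699 without junction array 3 or 2, and 592 without forestomach arrays 2 and 3. Limits of depth are those of dim probe sets, since corpus signals of Alox12b, Abca12 and Lipm lay under the filter level. Those of the Elovl4 probe set that does not represent the gene did so too.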

Other observations

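Among the tested genes of the pathway lists, Alox15, Alox5, Ugt8a and Degs2 were called higher in the junction than in both neighbours. They were picked out here after their values were seen. The share of all genes called so was not computed, so their number is no result about the lists. Alox15, a lipoxygenase of macrophages and eosinophils among other cells, had 197.7, 172.6 and 130.2 in the junction, 34.8, 31.4 and 15.6 in the forestomach, and 31.1, 41.4 and 55.2 in the corpus. It was higher in the junction than in the forestomach (log2 difference 2.28 ± 0.26, adjusted p = 1.70e-04, limma) and the corpus (1.76 ± 0.26, adjusted p = 0.00162). Alox5, the leukotriene-forming lipoxygenase of leukocytes, was likewise higher than in the forestomach (1.85 ± 0.32, adjusted p = 0.00164) and the corpus (1.41 ± 0.32, adjusted p = 0.0131), with 199.6, 221.3 and 285.4 in the junction. Ugt8a, which adds galactose to ceramide where Ugcg adds glucose, had 183.5, 195.9 and 227.4 in the junction, 9.5, 9.8 and 11.7 in the forestomach, and 118.0, 113.5 and 96.8 in the corpus. Its forestomach signals were under the filter level, and the junction was at least 6.79-fold above them (adjusted p = 5.34e-07) and above the corpus by 0.83 ± 0.11 (adjusted p = 0.00116). Degs2, which acts on the sphingoid base, was higher by a little, by 0.34 ± 0.09 than in the forestomach (adjusted p = 0.0125) and by 0.30 ± 0.09 than in the corpus (adjusted p = 0.0358). Of 5 immune cell markers tested, 3 rose in the junction against the corpus, and their median log2 difference between the junction and the forestomach was 0.05. Their part in the values of Alox5 and Alox15 was not tested.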
